A study of Homo sapiens with 12 samples.

Results

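The 46 genes described here encode proteins that carry a cell through G2 and mitosis: the mitotic cyclins and their kinase, other mitotic kinases, the spindle checkpoint, the centromere and kinetochore, the spindle and its motors, the condensing chromosomes, and the transcription factors FOXM1 and MYBL2. They were taken by symbol from a table of 20030 genes, and all 46 were found in it. HepG2 cells, an established line from a human liver tumour, received the solvent DMSO as control, 8HQ, FAC, or both agents (8HQ_FAC). RNA was sequenced in 3 libraries of each of these 4 groups. All labels give 6 h and 10 µM, DMSO included, and leave unsaid which agent had that dose. The letters are not spelled out. In this field 8HQ commonly means 8-hydroxyquinoline, a metal-binding compound, and FAC ferric ammonium citrate, a source of iron. The study's title is about labile iron inside cells, and no label asks about the cell cycle. No label says if replicate libraries are separate cultures, so p-values measure only the spread between these libraries, which may be technical.

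In late S phase and G2 a cell builds up cyclin B and the other proteins needed for division, and active CDK1 with cyclin B then starts mitosis. The spindle checkpoint holds the anaphase-promoting complex, a ubiquitin ligase, until every chromosome is attached; the ligase then destroys securin and cyclin B, and the cell divides. Most of these genes are transcribed mainly in G2 and M, through promoters that carry CCAAT boxes, bound by NF-Y, and a cell cycle homology region, bound by MuvB complexes with MYBL2 and FOXM1 in dividing cells. Growing hepatoma cells such as HepG2 cycle without stimulation and express the whole set.

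Promoters of 39 of the 46 genes were found in the RefSeq table for GRCh38.p14. In the 250 bases before the start, CCAAT was looked for on both strands (its reverse reads ATTGG), as were TTTGAA (reverse TTCAAA) and TTTAAA, the usual letters of the cell cycle homology region. Matches that share bases were counted separately, such as CCAAT and ATTGG in PTTG1 and HMMR and TTTGAA and ATTGG in MKI67. CCAAT was present in 26 of the 39 promoters (66.7%) and in 33.0% of all 27305 promoters of the table. At least 2 copies stood in 41.0% against 10.0%, and TTTGAA or TTTAAA in 64.1% against 22.2%. A match is a string of letters and not a shown binding site. The 7 promoters below are written 5′ to 3′ on the gene's strand with the motif letters in capitals. PTTG1 and HMMR, which rose most, and KIF11 and MKI67, which fell most, were picked by change of log2(FPKM + 1) in 8HQ_FAC against DMSO. The others are CCNB1, CDC20 and PLK1, whose levels in FAC and in 8HQ_FAC are compared later.
PTTG1: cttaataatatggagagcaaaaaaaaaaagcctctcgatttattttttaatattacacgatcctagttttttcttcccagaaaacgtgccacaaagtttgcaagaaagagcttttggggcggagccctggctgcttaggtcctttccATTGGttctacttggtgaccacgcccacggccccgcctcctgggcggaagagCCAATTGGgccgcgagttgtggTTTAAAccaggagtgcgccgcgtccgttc
HMMR: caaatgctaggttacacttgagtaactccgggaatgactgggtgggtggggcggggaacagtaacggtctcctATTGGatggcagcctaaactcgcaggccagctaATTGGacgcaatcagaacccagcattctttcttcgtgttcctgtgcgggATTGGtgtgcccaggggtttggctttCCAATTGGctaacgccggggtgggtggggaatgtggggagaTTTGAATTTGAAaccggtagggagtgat
KIF11: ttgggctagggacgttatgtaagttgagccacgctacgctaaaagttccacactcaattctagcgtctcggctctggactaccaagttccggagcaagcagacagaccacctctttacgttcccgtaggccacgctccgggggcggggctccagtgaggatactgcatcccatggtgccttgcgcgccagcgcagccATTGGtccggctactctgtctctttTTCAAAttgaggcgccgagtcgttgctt
MKI67: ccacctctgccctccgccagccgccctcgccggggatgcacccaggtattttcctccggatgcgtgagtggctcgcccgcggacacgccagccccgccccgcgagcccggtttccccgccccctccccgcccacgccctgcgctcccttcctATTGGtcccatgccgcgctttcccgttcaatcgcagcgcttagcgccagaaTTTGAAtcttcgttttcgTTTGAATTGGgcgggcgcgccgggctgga
CCNB1: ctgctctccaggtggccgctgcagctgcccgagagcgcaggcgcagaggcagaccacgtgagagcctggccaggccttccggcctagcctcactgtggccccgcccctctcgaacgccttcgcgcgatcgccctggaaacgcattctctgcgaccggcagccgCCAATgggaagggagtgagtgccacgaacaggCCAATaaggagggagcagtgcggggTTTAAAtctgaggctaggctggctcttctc
CDC20: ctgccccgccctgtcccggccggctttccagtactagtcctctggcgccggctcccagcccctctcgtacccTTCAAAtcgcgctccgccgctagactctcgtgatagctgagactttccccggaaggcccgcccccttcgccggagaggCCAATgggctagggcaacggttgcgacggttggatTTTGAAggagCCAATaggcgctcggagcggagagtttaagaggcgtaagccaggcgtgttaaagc
PLK1: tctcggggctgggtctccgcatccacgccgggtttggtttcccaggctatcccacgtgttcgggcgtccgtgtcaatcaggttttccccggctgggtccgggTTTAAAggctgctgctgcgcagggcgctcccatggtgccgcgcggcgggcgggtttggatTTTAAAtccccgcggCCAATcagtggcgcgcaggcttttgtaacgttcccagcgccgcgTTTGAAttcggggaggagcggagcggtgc
PTTG1 lies at chr5:160421605-160421854 (plus strand), HMMR at chr5:163460382-163460631 (plus), KIF11 at chr10:92592880-92593129 (plus), MKI67 at chr10:128126424-128126673 (minus), CCNB1 at chr5:69166900-69167149 (plus), CDC20 at chr1:43358731-43358980 (plus) and PLK1 at chr16:23678639-23678888 (plus), in GRCh38.p14. One of the homology region motifs began within 30 bases of the start in 6 of these 7, at base -29 in PTTG1, MKI67 and PLK1, -28 in HMMR and KIF11 and -30 in CCNB1. In CDC20 the nearest began at -65. PTTG1 and HMMR, which rose, and KIF11 and MKI67, which fell, thus held such letters at similar places. This did not extend to all genes: PLK4, NDC80 and KIF2C, also at least 2-fold lower in 8HQ_FAC, held none of the motifs in their 250 bases. The other genes called at least 2-fold lower, where a promoter was found, held a homology region motif. AURKB, called higher, held CCAAT and no homology region motif. Among the 39 genes, the 16 with at least 2 CCAAT copies had a median log2 change of 0.33 from DMSO to FAC and the other 23 had -0.01, and from DMSO to 8HQ_FAC the medians were -0.51 and -0.71. For 1 or more CCAAT copies, the 26 genes with and the 13 without had 0.09 and -0.07 in FAC, and -0.50 and -0.95 in 8HQ_FAC. For TTTGAA or TTTAAA, the 25 with and the 14 without had 0.06 and -0.004 in FAC, and -0.71 and -0.51 in 8HQ_FAC. These medians are given as a description, with no test.

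Levels are FPKM, which are scaled by gene length and by the mapped total of the library. Changes are differences of log2(FPKM + 1), n is 3 libraries in every group, and a gene was called at a Benjamini-Hochberg adjusted p under 0.05 in a limma model over 10823 expressed genes. All 46 genes passed the filter of 1 FPKM in 3 libraries, and their lowest value in any library was 2.09 FPKM (CENPE in 8HQ_FAC). Depth, estimated from the steps of the lowest values, was near 15200000 to 19600000 mapped fragments per library and lowest in 8HQ_FAC, at 0.773 to 0.842 of DMSO replicate 1. The absolute figures are rough, as the estimates from single genes for DMSO replicate 1 had quartiles of 14500000 and 25600000. The FPKM of all genes summed to 335508 to 346915 in the 9 libraries of DMSO, 8HQ and FAC and to 419275 to 427192 in 8HQ_FAC, and 4 other scalings were therefore run. These were quantile normalization, centring each library on its median, rescaling to a common sum, and taking out the trend with transcript length. The 10 hepatocyte markers were above 0 in every library, with a sum of 12957 to 15146 FPKM outside 8HQ_FAC and 20330 to 20934 in it. They did not move together: ALB, AFP, APOA1, TTR, SERPINA1, TF and FGB were higher in 8HQ_FAC than in DMSO, and APOB, HNF4A and FOXA2 lower. HNF4A was at 78.5, 78.8 and 81.3 FPKM in DMSO and 30.1, 28.8 and 29.5 in 8HQ_FAC. Of 22 markers of blood, immune, endothelial and stromal cells, libraries without FAC had 20 or 21 above 0 and those with FAC 10 to 14. HBB, CD3E, TYROBP, HLA-DRA and S100A8 were listed at 0 wherever FAC was given and above 0 in the other 6 libraries. LYZ stood at 1014 to 1947 FPKM throughout, and the 22 summed to 1101 to 1309 FPKM outside 8HQ_FAC and to 2025 to 2046 in it. The zeros follow FAC exactly, so whatever made them cannot be told apart from FAC, and their part in the results was not tested.

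Together the 46 genes summed to 1783 to 1845 FPKM in DMSO, 1777 to 1793 in 8HQ, then 2041 to 2078 in FAC and 1377 to 1408 in 8HQ_FAC. The sum was thus highest in all 3 FAC libraries and lowest in all 3 8HQ_FAC libraries, with no overlap between them and the rest. As a share of all FPKM it was 0.530% to 0.543% in DMSO, 0.588% to 0.602% in FAC and 0.322% to 0.334% in 8HQ_FAC. By group mean, FAC was the highest group for 25 genes, DMSO for 12, 8HQ for 6 and 8HQ_FAC for 3, while 8HQ_FAC was the lowest group for 36. In RNA from a bulk culture, fewer cells in G2 or M and less of these transcripts per cell cannot be told apart.

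In 8HQ_FAC against DMSO, 37 of the 46 genes were called lower (80.4%) and 7 higher (15.2%), where 56.7% of all tested genes were called lower and 27.5% higher. The 2 that were not called were MAD2L1 and NUF2. Because most genes fell in this comparison, size says more than the count: 13 of the 46 (28.3%) were called and at least 2-fold lower, against 10.1% of all genes, and the median log2 change was -0.54 against -0.23. Of the 46, 0 were called and at least 2-fold higher, against 2.22% of all genes. The log2(FPKM + 1) scale understates the change of low genes. All tested genes reach down to the filter of 1 FPKM, so the shares at 2-fold are not strictly alike. The median of all genes was -0.28 with a pseudocount of 0.1 and -0.21 with a filter at 5 FPKM. The groups did not overlap for the same 44 genes that were called; over all genes the groups did not overlap for 56.9% in the lower and 27.3% in the higher direction. The split was 7 higher and 37 lower as deposited, 8 and 36 under quantile normalization, 18 and 25 under median centring, 3 and 41 with sums made equal, and 8 and 32 after removing the length trend. Under these the median of all tested genes was 0.00, 0.18, -0.50 and 0.01. The median of the 46 less that of all genes was -0.45, -0.31, -0.35 and -0.32, against -0.31 as deposited. Median centring shifts all genes of a library alike, so it could not change this difference, and equal sums could do so only slightly. In all scalings, the added removal of length and GC together included, 26 genes kept a negative and 3 a positive sign (PTTG1, HMMR and CDC20).

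In FAC against DMSO, 17 genes were called higher (37.0%) and 10 lower (21.7%), where 24.8% of all tested genes were called higher and 29.2% lower. The median of the 46 was 0.04, against -0.01 for all genes, and 0 of the 46 reached 2-fold, against 0.333% of all genes higher and 0.647% lower. The split was 18 and 8 under quantile normalization, 19 and 7 under median centring, 16 and 11 with sums made equal, and 19 and 7 after removing the length trend. All 7 genes that were higher in 8HQ_FAC were also higher in FAC: PTTG1, HMMR, CDC20, UBE2C, BIRC5, CCNB2 and AURKB. Another 10 were higher in FAC and lower in 8HQ_FAC: ANLN, AURKA, BUB1, CCNB1, CKS2, KIF20A, NUSAP1, PLK1, TOP2A and TPX2. A further 10 were lower in both (BUB3, CDK1, FOXM1, KIF11, MYBL2, NCAPG, NDC80, NEK2, PLK4 and SMC2), and 17 were lower in 8HQ_FAC and not called in FAC. The comparisons share the DMSO libraries, so no overlap between them is tested.

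**Figure D1:**
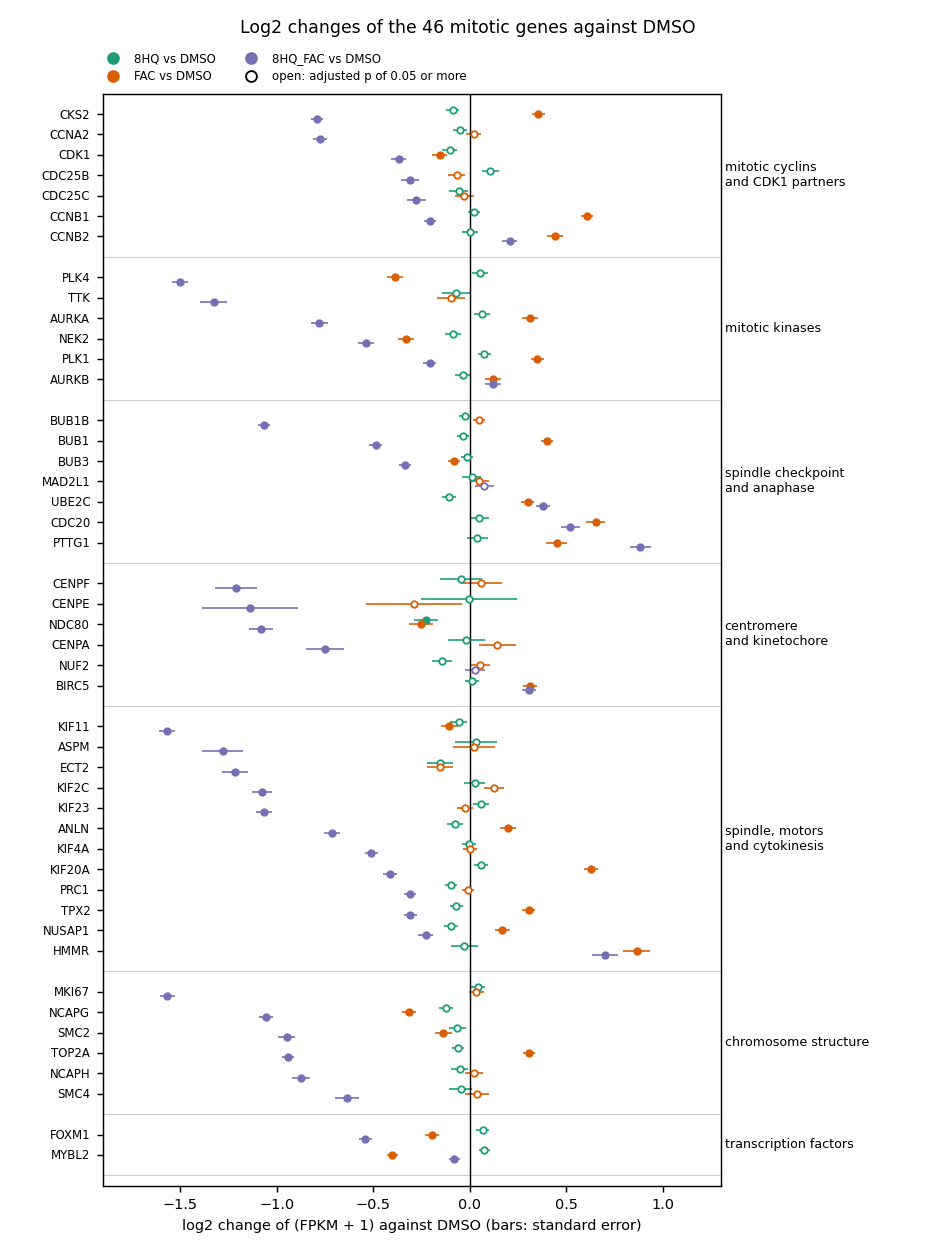
Log2 change of (FPKM + 1) from DMSO for each of the 46 genes, grouped by role, with bars of 1 standard error; filled points had an adjusted p under 0.05. The 8HQ points lie near 0, the FAC points on both sides, and most 8HQ_FAC points to the left, down to -1.57 for KIF11 and MKI67.

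The counts by role that follow stand beside the same shares of all tested genes, 56.7% lower and 27.5% higher in 8HQ_FAC and 29.2% lower and 24.8% higher in FAC. Among the mitotic cyclins and the partners of CDK1, 6 of 7 genes were lower in 8HQ_FAC and 1 higher, and in FAC 3 were higher and 1 lower; the list's median change in 8HQ_FAC was -0.31, near the -0.23 of all genes, and turned to 0.11 under median centring. CCNB1, cyclin B1, which activates CDK1 at mitotic entry, was measured at 63.9, 64.0 and 63.2 FPKM in DMSO and 64.9, 65.2 and 64.1 in 8HQ. CCNB1 was 97.9, 99.9 and 94.7 in FAC and 56.7, 55.8 and 52.9 in 8HQ_FAC. It was thus high in all FAC libraries and lowest in all 8HQ_FAC libraries, and no groups overlapped, although DMSO and 8HQ nearly met. The log2 change was 0.61 in FAC (SE 0.03, adjusted p = 6.76e-10) and -0.21 in 8HQ_FAC (SE 0.03, adjusted p = 1.3e-05). The second became 0.21 under median centring. CDK1, the kinase itself, stood at 37.9, 34.5 and 34.8 FPKM in DMSO and 33.4, 33.0 and 33.0 in 8HQ. CDK1 was 31.6, 31.0 and 33.3 in FAC and 27.3, 26.9 and 28.0 in 8HQ_FAC. Its level was lower in FAC (-0.15, adjusted p = 0.00368) and further down in 8HQ_FAC (-0.37, adjusted p = 3.01e-07, but 0.05 and not called under median centring). The transcript of the kinase thus fell in FAC while that of its cyclin rose. CCNB2, cyclin B2, read 42.1, 42.1 and 41.4 FPKM in DMSO and 41.3, 41.9 and 42.6 in 8HQ. CCNB2 was 54.5, 59.2 and 58.1 in FAC and 45.3, 50.5 and 49.8 in 8HQ_FAC. It was higher than DMSO in every library with FAC, by 0.44 in FAC and 0.21 in 8HQ_FAC (adjusted p = 4.01e-07 and 0.000207); with equal sums the second became -0.11.

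CKS2, a small protein that docks substrates on CDK1, was the most abundant of the 46 at 142 ± 3.34 FPKM (mean ± SD) in DMSO, rose to 182 ± 4.66 in FAC and fell to 81.8 ± 2.97 in 8HQ_FAC. CCNA2, cyclin A2, which acts in S phase and G2, was not called in FAC (48.4 ± 0.811 against 47.8 ± 1.5 in DMSO, 95% interval of the log2 change -0.06 to 0.10) and was 27.5 ± 1.36 in 8HQ_FAC (-0.78). CDC25B and CDC25C, phosphatases that remove inhibitory phosphates from CDK1, had log2 changes of -0.31 and -0.28 in 8HQ_FAC, close to the shift of all genes. Both turned positive under median centring (0.11 and 0.14), CDC25C also under quantile normalization (0.07), and CDC25B was not called after removing the length trend (-0.04). Relative to the median of all genes, CDK1 was at -0.14, CCNB1 at 0.03 and CKS2 at -0.56 in 8HQ_FAC.

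Of the 6 other mitotic kinases, 5 were lower and 1 was higher in 8HQ_FAC, and 3 were higher and 2 lower in FAC. PLK1, polo-like kinase 1, which matures centrosomes and builds the spindle, was at 95.7, 96.5 and 94.9 FPKM in DMSO and 99.3, 100 and 103 in 8HQ. PLK1 was 125, 124 and 119 in FAC and 82.7, 86.4 and 79.2 in 8HQ_FAC. All FAC libraries lay above and all 8HQ_FAC libraries below DMSO. The changes were 0.35 (adjusted p = 4.36e-07) and -0.21 (adjusted p = 2.17e-05), and the fall in 8HQ_FAC differed from the median of all genes by 0.024 and became 0.21 under median centring and 0.12 after removing the length trend. AURKA, Aurora A of the spindle poles, gave 63.0, 64.5 and 60.6 FPKM in DMSO and 64.9, 64.9 and 66.6 in 8HQ. AURKA was 76.4, 77.3 and 80.2 in FAC and 33.3, 37.0 and 38.1 in 8HQ_FAC. Its rise in FAC (0.31, SE 0.04, adjusted p = 2.26e-05) was about the size of that of PLK1, but its fall in 8HQ_FAC was larger (-0.78, SE 0.04, adjusted p = 1.05e-10) and kept its sign under all scalings.

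PLK4, the kinase that starts centriole duplication, fell in both groups with FAC: it read 16.8, 16.2 and 15.8 FPKM in DMSO and 16.8, 16.9 and 17.0 in 8HQ. PLK4 was 11.5, 12.3 and 12.8 in FAC and 5.12, 5.02 and 5.17 in 8HQ_FAC. The log2 change was -0.39 in FAC and -1.5 in 8HQ_FAC (SE 0.04, adjusted p = 7.59e-14), where the mean was 0.314 of that in DMSO. TTK, the checkpoint kinase MPS1, was at 14.6, 13.1 and 13.1 FPKM in DMSO and 13.3, 13.2 and 12.2 in 8HQ. TTK was 12, 12.9 and 13.0 in FAC and 4.10, 5.29 and 5.18 in 8HQ_FAC. The 8HQ_FAC libraries were far below the other 9, and FAC lay just below DMSO without overlap; the change from DMSO was -1.33 (SE 0.07, adjusted p = 8.82e-11) against -0.10 in FAC (adjusted p = 0.26). NEK2, which parts the centrosomes, had 20.8, 20.5 and 19.5 FPKM in DMSO and 17.8, 19.8 and 19.5 in 8HQ. NEK2 was 16.1, 15.7 and 15.8 in FAC and 13.4, 13.8 and 13.8 in 8HQ_FAC. Both groups with FAC were below both without, with changes of -0.33 and -0.54 (adjusted p = 9.97e-06 and 6.84e-09). AURKB, Aurora B of the chromosomal passenger complex, was at 35.9, 36.9 and 35.8 FPKM in DMSO and 35.6, 35.3 and 35.1 in 8HQ. AURKB was 39.1, 42.3 and 37.1 in FAC and 40.7, 38.5 and 38.9 in 8HQ_FAC. Its change was 0.12 in 8HQ_FAC (adjusted p = 0.014) and 0.12 in FAC (adjusted p = 0.0214). Without 8HQ_FAC replicate 1 the first was not called (0.10, adjusted p = 0.0634). The second was not called without DMSO replicate 1 (0.0565), DMSO replicate 3 (0.0615) or FAC replicate 2 (0.131). The first became -0.20 with equal sums and -0.18 after removing the length trend.

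The spindle checkpoint and anaphase genes were the most mixed: 3 of 7 were higher and 3 lower in 8HQ_FAC, and 4 were higher and 1 lower in FAC. Their median change in 8HQ_FAC was 0.08 and became -0.24 with equal sums. The 3 that were higher, PTTG1, CDC20 and UBE2C, act at anaphase. They also had the shortest transcripts of the 7, at 914 to 1777 bases. BUB1, BUB1B, BUB3 and MAD2L1 had 3576 to 7828 bases, and changes in 8HQ_FAC followed length, as described later. With the length trend removed, 4 were higher (PTTG1, CDC20, BUB3 and MAD2L1) and 3 lower. PTTG1, securin, which holds separase inactive until anaphase, had 32.3, 33.2 and 31.2 FPKM in DMSO and 29.7, 35.6 and 34.3 in 8HQ. PTTG1 was 43.4, 45.1 and 44.5 in FAC and 61.6, 62.7 and 56.6 in 8HQ_FAC. It was the largest rise of the 46 in 8HQ_FAC, 1.87-fold by means (log2 change 0.88, SE 0.06, adjusted p = 5.51e-10), with FAC between DMSO and 8HQ_FAC (0.45, adjusted p = 8.61e-06) and no overlap among the 3. CDC20, which activates the anaphase-promoting complex, was at 51.4, 48.9 and 45.6 FPKM in DMSO and 48.1, 49.0 and 54.2 in 8HQ. CDC20 was 79.3, 79.7 and 71.9 in FAC and 69.9, 69.3 and 71.4 in 8HQ_FAC. Both groups with FAC were above both without, by 0.65 (adjusted p = 8.53e-08) and 0.52 (adjusted p = 1.33e-07). UBE2C, a ubiquitin-conjugating enzyme of the same complex, read 52.0, 51.5 and 48.5 FPKM in DMSO and 45.6, 47.0 and 48.4 in 8HQ. UBE2C was 64.5, 62.6 and 60.5 in FAC and 65.9, 67.9 and 64.8 in 8HQ_FAC. Its changes were 0.30 and 0.38 (adjusted p = 6.54e-06 and 7.68e-08). The second was not called with equal sums (0.06, adjusted p = 0.123) and was -0.08 with the length trend removed. PTTG1 has a close copy, PTTG2, which was at 0.11 FPKM or less in every library; the sources used here do not say how shared reads were counted.

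As deposited, the transcripts of the checkpoint proteins themselves were lower in 8HQ_FAC or not called. BUB1B, which forms part of the inhibitor of CDC20, fell from 27.5 ± 0.472 to 12.6 ± 0.166 FPKM (-1.07, adjusted p = 1.37e-13) and was 28.5 ± 0.748 in FAC. BUB1, the kinase that recruits it, was at 31.3, 30.2 and 29.7 FPKM in DMSO, 40.8, 39.9 and 40.8 in FAC and 21.8, 21.2 and 21.2 in 8HQ_FAC. It thus rose in FAC (0.40) and fell in 8HQ_FAC (-0.49), although median centring took the fall to -0.07 and out of the calls (adjusted p = 0.0538). BUB3 was lower in 8HQ_FAC (-0.34), but higher under median centring (0.08) and after removing the length trend (0.27). MAD2L1, the MAD2 protein, had 45.5, 40.5 and 39.8 FPKM in DMSO and 44.0, 41.9 and 40.7 in 8HQ. MAD2L1 was 42.2, 43.2 and 44.9 in FAC and 42.2, 43.9 and 46.6 in 8HQ_FAC. These values overlapped in all groups, with an interval of -0.03 to 0.18 for the log2 change in 8HQ_FAC. Without DMSO replicate 1, its highest DMSO library, MAD2L1 was called higher (0.13, adjusted p = 0.0143). MAD2L1 was also called higher under median centring (0.49, adjusted p = 9.22e-08) and after removing the length trend (0.53, adjusted p = 7.66e-08). Its change was 0.02 under quantile normalization and -0.24 with equal sums.

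**Figure D2:**
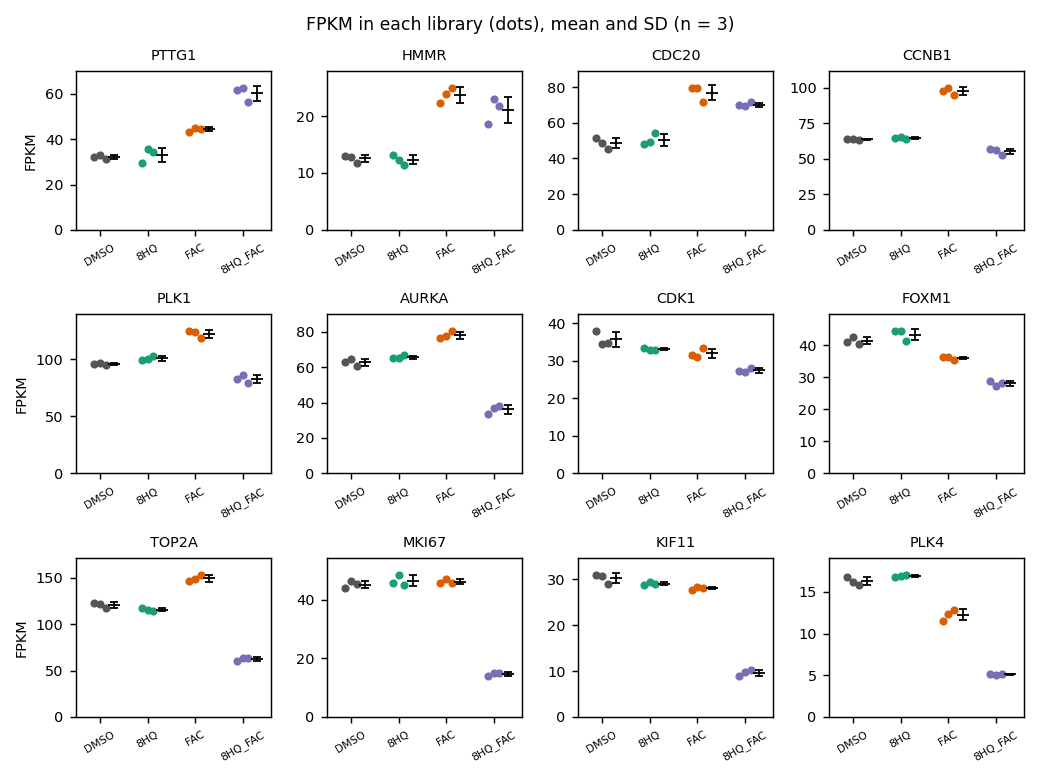
FPKM of 12 of the genes in each of the 12 libraries (dots), with the mean and SD of each group of 3; every axis starts at 0. PTTG1, HMMR and CDC20 are higher in both groups with FAC, CCNB1, PLK1, AURKA and TOP2A are highest in FAC and lowest in 8HQ_FAC, and MKI67 and KIF11 are far below the other groups in 8HQ_FAC.

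At the centromere and kinetochore, 4 of 6 genes were lower and 1 was higher in 8HQ_FAC. NDC80 and NUF2 encode partner subunits of the complex that grips microtubules, and they parted. NDC80 had 23.1, 23.1 and 21.7 FPKM in DMSO and 21.2, 18.7 and 17.9 in 8HQ. NDC80 was 18, 20.0 and 18.6 in FAC and 9.52, 10.2 and 10.9 in 8HQ_FAC. Its 8HQ_FAC libraries lay below all others (-1.08, adjusted p = 1.58e-10), and FAC and 8HQ were both below DMSO as well. NUF2 had 17.5, 15.3 and 16.6 FPKM in DMSO and 15.3, 14.2 and 14.9 in 8HQ. NUF2 was 16.1, 17.9 and 17.3 in FAC and 16.5, 16.4 and 17.4 in 8HQ_FAC. Its values in DMSO, FAC and 8HQ_FAC overlapped, with a log2 change of 0.03 in 8HQ_FAC (interval -0.08 to 0.14). It was called higher under quantile normalization (0.28) and median centring (0.45), and its change was -0.28 with equal sums and -0.04 after removing the length trend. CENPA, the histone H3 variant that marks the centromere, was 18.6, 18.3 and 18.8 in DMSO and 8.35, 11.6 and 12.4 in 8HQ_FAC (-0.75, adjusted p = 3.22e-06), with replicate 1 the lowest. BIRC5, survivin, of the chromosomal passenger complex with AURKB, had 53.9, 53.3 and 55.4 FPKM in DMSO and 53.9, 52.8 and 57.3 in 8HQ. BIRC5 was 68.0, 68.2 and 66.2 in FAC and 69.4, 67.9 and 64.4 in 8HQ_FAC. Every library with FAC lay above every library without it, FAC and 8HQ_FAC by the same amount (0.31 and 0.31, adjusted p = 4.36e-06 and 9.82e-07), though the second became -0.02 with equal sums.

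CENPE, a kinetochore motor, CENPF, a large kinetochore protein, and ASPM, a large spindle pole protein, shared a deviation. In FAC replicate 1 CENPE was at 2.47 FPKM against 7.72 and 8.15 in the other FAC libraries, CENPF at 21.5 against 32.8 and 32.9, and ASPM at 9.16 against 13.6 and 13.9. These were the only 3 of the 46 genes more than 0.5 below the mean of the other FAC libraries on the log2 scale, where 21 of all 10823 genes (0.194%) were. The 21 had a median transcript of 6419 bases and 39.4% GC, against 3614 bases and 48.5% over all genes with a length. In the other groups CENPE stood at 7.02, 7.11 and 6.77 in DMSO, 6.68, 7.31 and 6.85 in 8HQ and 2.09, 2.75 and 3.09 in 8HQ_FAC. CENPF was at 27.0, 27.9 and 27.0, 26.4, 26.8 and 26.3 and 10.7, 11.7 and 11.3 in the same order. ASPM was at 12, 12 and 11.5, 12.2, 12.8 and 11.4 and 3.87, 4.39 and 4.63. All 3 genes were thus lowest in 8HQ_FAC, and for CENPE the range of FAC overlapped it through FAC replicate 1 alone. With all libraries none was called in FAC (-0.29, 0.06 and 0.02); without FAC replicate 1 the changes were 0.17 for CENPE (adjusted p = 0.142), 0.26 for CENPF (adjusted p = 0.000173) and 0.20 for ASPM (adjusted p = 0.0163). In 8HQ_FAC all 3 were called lower than DMSO with or without that library, with changes of -1.14 (SE 0.25, adjusted p = 0.000596), -1.21 (SE 0.11, adjusted p = 4.17e-08) and -1.28 (SE 0.11, adjusted p = 2.07e-08). The fall of CENPE was not called with the length trend removed (-0.50, adjusted p = 0.0759).

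Among 12 spindle, motor and cytokinesis genes, 11 were lower in 8HQ_FAC and 1 was higher, and in FAC 5 were higher and 1 lower. KIF11, the motor that pushes the spindle poles apart, was at 31.0, 30.8 and 29.1 FPKM in DMSO and 28.8, 29.3 and 29 in 8HQ. KIF11 was 27.8, 28.3 and 28.2 in FAC and 8.87, 9.69 and 10.1 in 8HQ_FAC. On the log2(FPKM + 1) scale it shared the largest fall of the 46 with MKI67 (-1.57, SE 0.04, adjusted p = 5.05e-14). Its mean was 0.316 of that in DMSO, and by this ratio PLK4, at 0.314, fell slightly more. The change of KIF11 in FAC was small and at the edge of the threshold (-0.11, adjusted p = 0.0478). ECT2, which is needed for cytokinesis, had 21.0, 21.3 and 21.3 FPKM in DMSO and 19.6, 19.0 and 18.3 in 8HQ. ECT2 was 18.3, 19.8 and 18.9 in FAC and 7.29, 9.54 and 8.99 in 8HQ_FAC. It fell in 8HQ_FAC (-1.22, SE 0.07, adjusted p = 1.15e-10). The kinesins KIF23 and KIF2C, of the central spindle and of chromosome alignment, fell by similar amounts (-1.06 and -1.08). The change was -0.51 for KIF4A, which acts on chromosome arms and the midzone, and -0.71 for ANLN, the scaffold of the contractile ring.

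KIF20A, a kinesin of the central spindle, moved in opposite directions in the groups with FAC. It had 25.5, 26.3 and 26.8 FPKM in DMSO and 28.3, 27.5 and 26.3 in 8HQ. KIF20A was 40.5, 42.6 and 40.2 in FAC and 19.5, 19.6 and 19.2 in 8HQ_FAC. It was 1.57-fold as high in FAC as in DMSO (0.63, adjusted p = 2.3e-09), and in 8HQ_FAC it lay below DMSO (-0.41, adjusted p = 2.74e-08; 0.00 under median centring). TPX2, which activates AURKA on the spindle, and NUSAP1, a microtubule bundler, were likewise highest in FAC and lowest in 8HQ_FAC. Their changes from DMSO in 8HQ_FAC were -0.31 and -0.23, both positive under median centring (0.11 and 0.19), and that of TPX2 was not called after removing the length trend (-0.04). PRC1, which joins antiparallel microtubules, was lower in 8HQ_FAC (-0.31) but positive under median centring (0.11) and after removing the length trend (0.01). HMMR, a spindle protein and hyaluronan receptor, was the exception of the group, at 13.1, 12.8 and 11.8 FPKM in DMSO and 13.1, 12.4 and 11.5 in 8HQ. HMMR was 22.2, 23.9 and 25 in FAC and 18.6, 23.0 and 21.7 in 8HQ_FAC. All 6 libraries with FAC exceeded all 6 without, by 0.86 in FAC (SE 0.07, adjusted p = 9.73e-08) and 0.70 in 8HQ_FAC (SE 0.07, adjusted p = 1.33e-07). Its transcript overlaps an antisense RNA, HMMR-AS1. The sources used here do not say whether reads were counted by strand, so reads of overlapping genes may be mixed. In GENCODE v29, 12 of the 46 genes have an exon overlap on the opposite strand, among them PLK1, KIF20A, CCNA2, NCAPG and ANLN.

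All 6 chromosome structure genes were lower in 8HQ_FAC under every scaling, and in FAC 1 was higher and 2 lower. MKI67, the Ki-67 protein that coats mitotic chromosomes and marks dividing cells, was at 43.9, 46.4 and 45.3 FPKM in DMSO and 45.9, 48.6 and 45.1 in 8HQ. MKI67 was 45.6, 47.1 and 45.9 in FAC and 13.8, 15.0 and 15.0 in 8HQ_FAC. The 9 libraries of DMSO, 8HQ and FAC overlapped, and all 8HQ_FAC libraries were near 0.323 of them: the change was -1.57 in 8HQ_FAC (SE 0.04, adjusted p = 2.42e-14) and 0.03 in FAC (interval -0.05 to 0.12, adjusted p = 0.499). TOP2A, the topoisomerase that untangles sister chromatids, had 123, 122 and 117 FPKM in DMSO and 117, 116 and 114 in 8HQ. TOP2A was 146, 149 and 153 in FAC and 59.8, 63.2 and 64.1 in 8HQ_FAC. Unlike MKI67 it was higher than DMSO in FAC (0.31, SE 0.03, adjusted p = 1.16e-06), and it was below DMSO in 8HQ_FAC (-0.94, SE 0.03, adjusted p = 4.03e-13). The condensin I genes SMC2, SMC4, NCAPG and NCAPH fell in 8HQ_FAC, with log2 changes of -0.95, -0.64, -1.06 and -0.87. In FAC NCAPG was lower (-0.32), SMC2 slightly so (-0.14), and SMC4 and NCAPH were not called (0.04 and 0.02).

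The transcripts of the transcription factors in the set did not rise in FAC. FOXM1 stood at 40.9, 42.6 and 40.6 FPKM in DMSO and 44.4, 44.4 and 41.3 in 8HQ. FOXM1 was 36.4, 36.2 and 35.5 in FAC and 28.9, 27.3 and 28.2 in 8HQ_FAC. It was lower in FAC (-0.19, SE 0.04, adjusted p = 0.000332) and lower again in 8HQ_FAC (-0.54, SE 0.04, adjusted p = 1.03e-09). MYBL2, the B-MYB protein of the activating MuvB complex, was at 98.1, 99.6 and 97.5 FPKM in DMSO and 103, 104 and 104 in 8HQ. MYBL2 was 75.2, 76.2 and 71.5 in FAC and 94.8, 90.9 and 93.4 in 8HQ_FAC. On the log2(FPKM + 1) scale it had the largest fall of the 46 in FAC (-0.40, SE 0.03, adjusted p = 2.6e-08). By ratio of means PLK4 fell slightly more (0.751 of DMSO against 0.755 for MYBL2). As deposited, MYBL2 in 8HQ_FAC was close to DMSO (-0.08, adjusted p = 0.0163). That last call was lost without DMSO replicate 2 (adjusted p = 0.0567) or 8HQ_FAC replicate 2 (0.0763). The place of MYBL2 in 8HQ_FAC depended on scaling in both directions. Its change from DMSO was positive under median centring (0.34) and after removing the length trend (0.04). It was -0.32 under quantile normalization and -0.40 with equal sums. In FAC, both factors were thus lower in all 3 libraries than in any DMSO library, while CCNB1, CDC20, PLK1 and AURKA were higher in all 3. The 46 as a whole were split in FAC, with 17 called higher (37.0%) and 10 lower (21.7%), against 24.8% and 29.2% of all tested genes. Those called lower beside the factors were BUB3, CDK1, KIF11, NCAPG, NDC80, NEK2, PLK4 and SMC2.

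8HQ alone changed few of these genes past the threshold. Of the 46, 1 was called lower, NDC80 (2.17%), and 0 higher, where limma called 2.41% of all tested genes lower and 2.49% higher; 12 of the 46 had an unadjusted p under 0.05, as did 19.8% of all genes. NDC80 changed by -0.23 (adjusted p = 0.0464), and the call was lost without any of the DMSO libraries, 8HQ replicate 2 or 3, FAC replicate 3 or 8HQ_FAC replicate 2 (adjusted p 0.0558 to 0.177). The median of the 46 was -0.03, against 0.01 for all genes. For MKI67 the interval was -0.04 to 0.12, for CCNB1 -0.04 to 0.09 and for CDK1 -0.19 to -0.02. Ranges did not overlap for 11 genes in the lower and 6 in the higher direction (23.9% and 13.0%), against 11.5% and 14.6% of all genes.

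When 8HQ was added to FAC, 39 of the 46 were called lower (84.8%) and 3 higher (6.52%), against 56.0% and 26.8% of all tested genes, with a median of -0.77 against -0.22. Of the 46, 14 were at least 2-fold lower, against 7.07% of all genes. The 3 that were higher in 8HQ_FAC than in FAC were PTTG1 (0.43), MYBL2 (0.32) and UBE2C (0.08, adjusted p = 0.0483). UBE2C lost the call without 8HQ replicate 2, DMSO replicate 2, FAC replicate 2 or 3, or 8HQ_FAC replicate 1 or 2 (adjusted p 0.0545 to 0.184) and turned to -0.21 with equal sums, -0.32 with the length trend removed and -0.08 under quantile normalization. AURKB, BIRC5, MAD2L1 and NUF2 were not called. PTTG1 was not called after removing the length trend (0.10, adjusted p = 0.101), nor MYBL2 with equal sums (0.03, adjusted p = 0.285). The largest falls on the log2(FPKM + 1) scale were MKI67 (-1.60), KIF11 (-1.46), ASPM (-1.30), CENPF (-1.27) and TOP2A (-1.25). Under median centring the split was 16 higher and 27 lower, and with equal sums 1 and 44. When FAC was added to 8HQ, 37 were lower (80.4%) and 8 higher (17.4%), against 57.6% and 26.8% of all genes, with a median of -0.55 against -0.25; 11 were at least 2-fold lower, against 10.7% of all genes. The 8 were the 7 higher in 8HQ_FAC than in DMSO and NUF2 (0.17). Of these UBE2C was not called with the length trend removed (0.03, adjusted p = 0.465) or with length and GC removed (0.07, adjusted p = 0.0965). Median centring gave 18 higher and 24 lower, and equal sums 4 and 41.

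The interaction compares the effect of FAC in the presence of 8HQ with its effect in the absence of 8HQ. It was called lower for 36 of the 46 (78.3%) and higher for 3 (6.52%), against 53.3% and 23.4% of all tested genes, and the median was -0.63 against -0.24. It was -1 or lower for 13 (7.43% of all genes). Under median centring the split was 15 higher and 27 lower, and with equal sums 0 and 42. FAC changed MKI67 by 0.03 without 8HQ and by -1.61 with it, a difference of -1.64 (SE 0.05, adjusted p = 4.46e-12). For KIF20A the 2 effects were 0.63 and -0.47 (difference -1.10), and for CCNB1 0.61 and -0.23 (difference -0.83). They were for AURKA 0.31 and -0.84 (difference -1.15), and for TOP2A 0.31 and -0.88 (difference -1.19). For these 4 genes FAC raised the level without 8HQ and lowered it with 8HQ, though the fall of CCNB1 with 8HQ became a rise of 0.19 under median centring. HMMR rose without and with 8HQ, and the difference was not called (0.86 and 0.73, difference interval -0.34 to 0.07), as did BIRC5 (0.31 and 0.29, -0.13 to 0.09) and AURKB (0.12 and 0.15, -0.09 to 0.16). Across the 46 genes the effects of FAC without and with 8HQ, which share no library, had a Pearson correlation of 0.541 and a Spearman correlation of 0.47, and across all tested genes these were 0.39 and 0.412. The genes come from the same libraries, so this is a description with no test.

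Changes in 8HQ_FAC followed transcript length among these genes as among all genes. The longest GENCODE v29 transcript of the 46 ranged from 613 bases (CKS2) to 12678 (MKI67), and may not be the one these cells express. Across the 46, the Spearman correlation of length with the change was -0.547, against -0.486 across 10761 genes with a length, and GC content had 0.442 against 0.17. The 8 members under 2000 bases had a median of 0.07, the 22 from 2000 to under 4000 bases -0.51 and the 16 of 4000 bases or more -0.94, and the same bins of all genes had 0.29, -0.14 and -0.50. In each bin the median of the 46 was thus below that of all genes. The rule was not strict: CKS2, the shortest, changed by -0.79. PLK4 and TTK, of 3841 and 3725 bases, fell more than the longer BUB3 (-0.34 at 7828 bases). MAD2L1, at 5468 bases, was not called as deposited (0.08) and was called higher with the length trend removed (0.53). In FAC against DMSO the correlation with length was -0.309 in the 46 and -0.115 in all genes. With the length trend removed, 32 of the 46 were called lower and 8 higher in 8HQ_FAC. The cause of the trend was not tested.

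**Figure D3:**
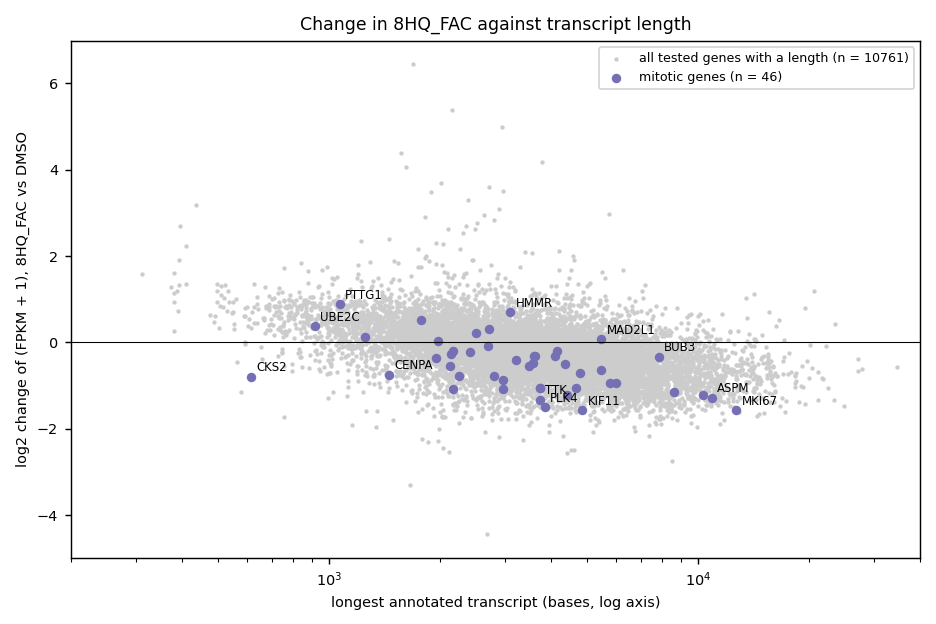
Log2 change of (FPKM + 1) from DMSO to 8HQ_FAC against the longest annotated transcript in bases (log axis), for the 46 genes (purple) and all 10761 tested genes with a length (grey). The long MKI67 and ASPM lie at -1.57 and -1.28 and the short PTTG1 at 0.88, but the shortest of the 46, CKS2, lies at -0.79.

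Calls that hung on 1 library were mostly small. In FAC against DMSO the number called higher was 16 to 19 and the number called lower 7 to 11 when each library was left out in turn. BUB3 (-0.08) was not called without FAC replicate 1 or 3 or any DMSO replicate (adjusted p 0.0577 to 0.172). SMC2 was not called without DMSO replicate 1 (0.0768) or FAC replicate 1 (0.0863), nor KIF11 without any FAC or 8HQ replicate, DMSO replicate 1 or 2, or 8HQ_FAC replicate 2 (0.0537 to 0.14). Conversely CDC25B was called lower without FAC replicate 1 (-0.12, adjusted p = 0.0343). CENPA (0.14, 0.0351) and KIF2C (0.13, 0.0174) were called higher and ECT2 lower (-0.15, 0.00517) without 8HQ_FAC replicate 1, as was KIF2C without 8HQ_FAC replicate 3 (0.00719) and ECT2 without 8HQ_FAC replicate 2 (0.0355), which only lend their spread to this comparison. In 8HQ_FAC against DMSO the number called lower was 36 or 37 throughout.

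Other genes of the cell cycle were counted in 9 lists chosen by function, of which the genes named are among the 4 with the smallest adjusted p. Their counts stand beside 56.7% lower and 27.5% higher of all tested genes in 8HQ_FAC, with a median of -0.23, and 29.2% lower and 24.8% higher in FAC, with a median of -0.01. In 8HQ_FAC the other spindle and cytokinesis genes were lower in 27 of 29 and higher in 1, with a median of -0.73. CKAP5, which polymerises microtubules, went from 51.5 ± 1.23 to 28.9 ± 0.637 FPKM. Other centromere and kinetochore genes were lower in 23 and higher in 6 of 33 (median -0.56), with INCENP, the scaffold of the passenger complex, at 13.7 ± 0.708 and 5.42 ± 0.381. Other condensin and cohesin genes were lower in 10 and higher in 0 of 12 (median -0.78), and STAG2, a cohesin subunit, went from 18.6 ± 0.185 to 7.79 ± 0.131. Under median centring the splits of these 3 lists were 6 higher and 17 lower, 13 and 17, and 3 and 8. Their medians lay below that of all tested genes under each scaling run. Median centring could not change this, as it shifts all genes of a library alike, and equal sums could change it only slightly.

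Among the regulators of mitotic entry, 10 of 12 were lower and 2 higher in 8HQ_FAC (median -0.48), with 6 lower and 5 higher under median centring. MASTL, the Greatwall kinase, fell in FAC (-0.43, adjusted p = 1.12e-05) and further in 8HQ_FAC (-1.02, adjusted p = 7.26e-11), while CCNF, cyclin F, rose in FAC (0.28, adjusted p = 0.000557) and fell in 8HQ_FAC (-0.80, adjusted p = 1.49e-09). The anaphase-promoting complex and its regulators were split, 5 higher and 7 lower of 17 in 8HQ_FAC and 8 and 2 in FAC, and the first split became 10 and 5 under quantile normalization, 12 and 4 under median centring and 3 and 12 with equal sums. UBE2S, which lengthens the ubiquitin chains that UBE2C begins, went from 27.2 ± 1.27 in DMSO to 52.9 ± 1.73 in 8HQ_FAC (log2 change 0.94, adjusted p = 4.48e-12). FZR1, the CDC20 relative that acts after anaphase, fell from 8.90 ± 0.298 to 3.67 ± 0.0572 (-1.08). UBE2S, like CDC20 and PTTG1, was higher in 8HQ_FAC than in DMSO under every scaling.

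Of 9 CDK inhibitors and antiproliferative genes tested, 6 were higher and 3 lower in 8HQ_FAC, with a median of 0.32 against -0.23 for all genes. With equal sums 4 were higher and 3 lower and the median was 0.0053, against -0.50 for all genes, and under median centring 6 were higher and 1 lower. CDKN1A, the inhibitor p21, averaged 75.2 ± 1.31 in DMSO and 79.7 ± 3.47 in 8HQ, against 57.2 ± 2.73 in FAC and 339 ± 22.6 in 8HQ_FAC. It was lower in FAC (-0.39, adjusted p = 6.25e-06) and higher in 8HQ_FAC (2.16, adjusted p = 9.16e-15). GADD45A and GADD45B, stress-induced proteins that can inhibit CDK1, rose in 8HQ_FAC from 38.7 ± 0.825 to 146 ± 7.22 and from 2.42 ± 0.446 to 43.0 ± 2.30. CDKN1B, the inhibitor p27, fell from 31.1 ± 0.0763 to 14.5 ± 0.506. These 4 directions were the same under every scaling run.

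The RB, MuvB and E2F genes were lower in 16 of 18 and higher in 1 in 8HQ_FAC (median -0.75) and lower in 11 and higher in 3 in FAC (median -0.25). LIN54, the MuvB subunit that binds the cell cycle homology region, went from 9.55 ± 0.0333 in DMSO to 7.60 ± 0.273 in FAC and 2.43 ± 0.259 in 8HQ_FAC, and E2F8, a repressor, from 9.11 ± 0.608 to 4.85 ± 0.470 and 1.81 ± 0.270. S phase genes were lower in 28 and higher in 1 of 32 in FAC (median -0.32), where the 46 mitotic genes had a median of 0.04. MCM3, of the replication helicase, was at 151 ± 0.664 in DMSO, 110 ± 0.424 in FAC and 97.5 ± 1.65 in 8HQ_FAC. The S phase count in FAC was 26 to 29 lower under every scaling. In 8HQ_FAC S phase genes were lower in 23 and higher in 6 (median -0.33), which median centring turned to 10 and 14. The G1 cyclins and kinases were lower in 6 and higher in 1 of 7 in FAC. In 8HQ_FAC 2 were lower and 2 higher (1 and 6 under median centring, 4 and 0 with equal sums). CDK6 went from 37.3 ± 1.5 to 11.3 ± 0.491 and CCNE1, cyclin E1, from 20.0 ± 0.606 to 26.1 ± 1.42. The rise of CCNE1 was not called with equal sums (0.05, adjusted p = 0.379).

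**Figure D4:**
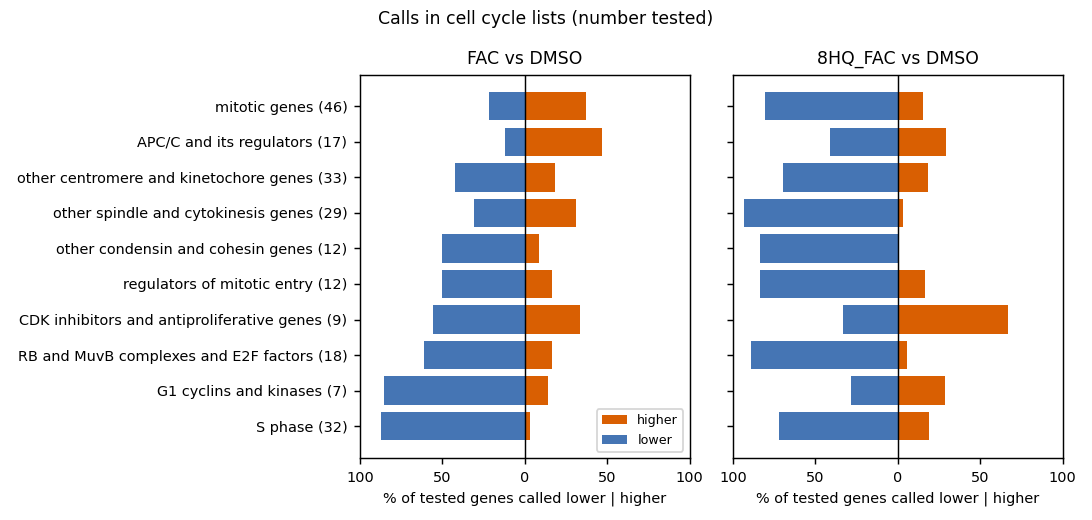
Share of tested genes called lower (left, blue) and higher (right, orange) in FAC and in 8HQ_FAC against DMSO, for the 46 mitotic genes and 9 other cell cycle lists, with the number tested in brackets. In FAC 28 of 32 S phase genes were lower and 17 of the 46 mitotic genes higher. In 8HQ_FAC 37 of the 46 were lower and 6 of 9 CDK inhibitor and antiproliferative genes higher.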

How the data were processed

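RNA of 12 HepG2 libraries, 3 in each of 4 groups, had been sequenced, and the authors deposited 1 table of FPKM per gene, in which all 12 columns were matched to samples by name. The submitters' processing notes name Bowtie 0.12.2 and the mouse builds mm8 and mm9; no source used here names the human build or the program that gave the FPKM. Of 20030 genes, the 10823 with at least 1 FPKM in at least 3 libraries were tested on log2(FPKM + 1) with limma 3.58.1 in R 4.3.3, with a mean per group, all 12 libraries, a trended prior and Benjamini-Hochberg adjustment over all tested genes (two-sided). The FPKM table holds no counts, so counting error is not modelled; the script was tested on simulated data. A fold change on this scale understates the change of low genes. Quantile normalization, median centring (equal library medians), equal FPKM sums, removal of the loess trend with length, other filters and pseudocounts, limma without a trend, a replicate block and leaving out each library were the alternatives; removal of length and GC together was chosen after seeing the data. Any of the 46 genes could be named. Full values were given for MKI67, TOP2A, CCNB1, CDK1, PLK1, AURKA and FOXM1, for the 8 largest called rises and falls in 8HQ_FAC against DMSO and for the 3 in each other comparison; MAD2L1, NUF2 and BUB1 were added after their values were seen. Other lists name up to 4 genes with the smallest adjusted p. The 46 genes and all lists were chosen with earlier results of these data known. No 2 libraries held identical values, and 27 symbols that had become dates were restored. Promoters and gene names came from RefSeq, lengths from GENCODE v29.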

Additional observations from a re-analysis of the deposited data

Results flagged for a closer look

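The effect of FAC differed between cells with and without 8HQ, by the interaction term of limma, for 39 of the 46 genes: 36 were lower and 3 higher with 8HQ than without. Of all tested genes, 53.3% were called lower and 23.4% higher by the same term. The 3 higher were PTTG1 (difference of log2 changes 0.40), MYBL2 (0.25) and UBE2C (0.19), and the 3 with the lowest values were MKI67 (-1.64), KIF11 (-1.40) and ASPM (-1.33). None of the 3 higher calls held under every scaling. PTTG1 was not called with equal sums (0.11, adjusted p = 0.186), with the length trend removed (0.07, adjusted p = 0.447) or with length and GC removed (0.11, adjusted p = 0.231). MYBL2 and UBE2C were not called under quantile normalization (0.02 and 0.03, adjusted p = 0.614 and 0.625), and both turned negative with equal sums.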

How the results depend on the processing

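The count of genes called higher in 8HQ_FAC against DMSO was 18 under median centring and 3 with equal sums; in 8HQ_FAC against FAC it was 16, 1 and, with length and GC removed, 5; in 8HQ_FAC against 8HQ 18 and 4 (24 called lower under median centring); and in the interaction 15, 0 and 5. The single call in 8HQ against DMSO became 0 with equal sums, no filter, a pseudocount of 0.1, limma without trend or the replicate block, 3 with the length trend removed, and 0 to 2 when each library was left out. The replicate block gave 7 higher and 37 lower in 8HQ_FAC against DMSO and took UBE2C out of the calls in 8HQ_FAC against FAC (adjusted p = 0.0537). Across genes, the deviations of same-numbered libraries from their group means correlated at -0.076 to 0.048 between groups. No pairing by number was thus seen, but such values from 3 libraries per group cannot exclude one.

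Signs reversed in 8HQ_FAC against DMSO as follows. Median centring gave CCNB1 0.21, CDK1 0.049, CDC25B 0.11, CDC25C 0.14, PLK1 0.21, BUB3 0.081, KIF20A 0.0040, TPX2 0.11, NUSAP1 0.19, PRC1 0.11, MYBL2 0.34 and CCND1 0.33. Quantile normalization gave CDC25C 0.074 and CDK4 -0.00090. Equal sums gave AURKB -0.20, BIRC5 -0.017, CCNB2 -0.11, MAD2L1 -0.24, NUF2 -0.28 and CDK4 -0.061. Without the length trend, and then without length and GC, AURKB was -0.18 and -0.17, BUB3 0.27 and 0.31, PLK1 0.12 and 0.10, PRC1 0.011 and 0.041, MYBL2 0.038 and 0.0031, UBE2C -0.082 and -0.037, CCND1 0.25 and 0.28, and NUF2, not called in these or as deposited, -0.037 and -0.033.

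In 8HQ_FAC against 8HQ, median centring gave CCNB1 0.19, CDK1 0.16 and PLK1 0.14, and PLK1 was 0.056 and 0.069 without length and without length and GC. In 8HQ_FAC against FAC, median centring gave CDK1 0.15 and FOXM1 0.021, and UBE2C was -0.21 with equal sums, -0.32 and -0.27 without length and without length and GC, and -0.076 under quantile normalization. In the interaction CDK1 was 0.27 under median centring, MYBL2 -0.039 with equal sums, and UBE2C -0.096 with equal sums and -0.21 and -0.17 without length and without length and GC. The cause was not tested. The table gives no counts per gene, so what depth limits is known only through the spread of the libraries.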
